A study of Mus musculus with 12 samples.

Results

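Wfdc1, Pkdcc, Pfn2, Tmem132c, Acot7 and Bpifb5 are 6 of the 35896 genes counted in whole mouse uteri across the estrous cycle. They were chosen by their mean level in CPM (estimated counts scaled to a common library size), which was highest in diestrus for 6 of 6. On the log2 scale 25.5% of all tested genes were highest there. On that scale the members were too, except Bpifb5, which was marginally higher in metestrus. Diestrus levels are therefore given as a description with no test, and tests are confined to differences among proestrus, estrus and metestrus. All 6 were among the 12052 genes that had enough counts to be tested. The samples were uteri of wild type Swiss Webster females aged 8 to 12 weeks, with 3 samples in each of 4 stages: proestrus, estrus, metestrus and diestrus. No group carried a transgene, deletion or treatment. Polyadenylated RNA was read by 3' TagSeq, which reads a tag close to where the transcript ends, and counts depend little on transcript length. The labels do not say whether each sample came from a separate animal, and p-values measure the spread between these samples only.

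The estrous cycle is driven by ovarian steroids. Estrogen rises toward proestrus and makes the epithelium proliferate, and progesterone from the corpora lutea acts through metestrus and diestrus on the stroma and glands. The 6 genes belong to unrelated families. Wfdc1 encodes a secreted protein of the whey acidic protein family that restrains growth and is made by smooth muscle and stroma in the prostate. Bpifb5 belongs to the family of secreted lipid-binding proteins around the bactericidal/permeability-increasing protein. Pkdcc encodes a tyrosine kinase of the secretory pathway that phosphorylates proteins outside the cell and is needed for skeletal growth. Tmem132c encodes a membrane protein of poorly known function. Pfn2 encodes profilin 2, which binds actin monomers, and Acot7 encodes an enzyme that splits long-chain acyl-CoA into a fatty acid and coenzyme A. Pfn2 and Acot7 are best known from the brain.

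Total estimated counts ran from 1652841 to 2200563 per library. A library with 0 counts of a gene still allows up to 3, worth 1.37 to 1.89 CPM, and this floor covers counting error only. The 3 metestrus libraries differed from each other in some marker genes: the summed level of 14 stromal fibroblast markers was 7820 CPM in replicate 5 against 16000 and 14500 CPM in replicates 6 and 7. The summed level of 6 gland markers was 434 CPM in metestrus replicate 7 and 92.8 and 101 CPM in replicates 5 and 6. Of the 434 CPM, 374 came from the serine protease genes Prss28 and Prss29, and the other 4 gland markers summed to 59.6 CPM there against 92.3 and 100 CPM in replicates 5 and 6. Because whole uteri were used, a gene made by fewer cells of a type and a gene with less RNA per cell cannot be told apart.

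The promoters of Pkdcc, Tmem132c and Bpifb5 are shown because Pkdcc and Tmem132c held the most GC boxes of the 5 members with an entry (all but Wfdc1), and because Bpifb5 and Tmem132c followed the cycle differently from the others. Each line is the 250 bases before the RefSeq start (GRCm38.p6), on the plus strand for all 3, in lower case with every GC box (GGGCGG on either strand) in capitals. The Pkdcc window is chr17:83215033-83215282, that of Tmem132c is chr5:127241576-127241825 and that of Bpifb5 is chr2:154223492-154223741.
Pkdcc: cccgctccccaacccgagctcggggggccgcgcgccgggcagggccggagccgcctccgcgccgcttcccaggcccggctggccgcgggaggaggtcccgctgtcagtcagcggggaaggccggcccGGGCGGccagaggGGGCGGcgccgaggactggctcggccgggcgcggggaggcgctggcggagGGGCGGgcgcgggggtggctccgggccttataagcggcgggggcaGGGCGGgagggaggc
Tmem132c: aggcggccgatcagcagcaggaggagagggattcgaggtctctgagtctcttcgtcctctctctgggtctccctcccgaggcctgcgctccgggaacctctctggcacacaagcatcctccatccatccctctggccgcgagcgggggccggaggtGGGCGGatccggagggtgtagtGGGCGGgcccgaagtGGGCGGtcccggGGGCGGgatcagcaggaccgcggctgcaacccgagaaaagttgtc
Bpifb5: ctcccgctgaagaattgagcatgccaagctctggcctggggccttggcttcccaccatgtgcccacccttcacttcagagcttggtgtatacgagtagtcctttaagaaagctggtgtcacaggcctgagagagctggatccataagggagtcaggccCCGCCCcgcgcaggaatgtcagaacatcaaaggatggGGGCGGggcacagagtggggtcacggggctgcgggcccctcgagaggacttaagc
GC boxes are short sites that zinc finger proteins of the Sp family can bind. Pkdcc had 4, starting 123, 110, 60 and 15 bases before the gene start. Tmem132c also had 4, at 94, 72, 57 and 45 bases. Bpifb5 had 2, at 92 bases (reverse strand) and 55 bases, and Pfn2 had 1, at 87 bases. Acot7 had 2 overlapping ones, 59 and 54 bases before its RefSeq start, which lies inside the GENCODE span of the gene and is not the start of the transcript with most counts. The Pfn2 window (chr3:57847758-57848007, minus strand) also lies inside the GENCODE span of its gene, and the Tmem132c window reaches into that of its gene. All 5 windows held a GC box, and 32.7% of the 32851 promoters of that length did. GC content was 83.2% for Pkdcc, 78% for Pfn2, 68% for Tmem132c, 60% for Bpifb5 and 56.4% for Acot7, against a median of 52.4% over all promoters. On either strand, none of the 5 windows held the full palindromic estrogen response element (0.0639% of all promoters), the palindromic progesterone and glucocorticoid response element (0.387%) or TATAAA (12.4%). These are matches of letters only.

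Wfdc1 (ENSMUSG00000023336, chromosome 8, 119666365 to 119688222, plus strand, GRCm38) had 148, 184 and 166 CPM in diestrus. It had 38.9, 49.2 and 82.3 CPM in metestrus, 31.9, 26.4 and 23.3 CPM in proestrus, and 21, 20 and 21.1 CPM in estrus. Every diestrus sample was above every other sample, and metestrus was intermediate. The estrus samples lay within a narrow band. The diestrus mean, 166 ± 17.9 CPM (SD, n = 3), was 2.92 times the metestrus mean of 56.8 ± 22.7 CPM, and the lowest diestrus sample was 1.8 times the highest of the other 9, metestrus replicate 7.

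Pkdcc (ENSMUSG00000024247, chromosome 17, 83215292 to 83225070, plus strand) had 131, 141 and 215 CPM in diestrus and 36.8, 43.6 and 81.1 CPM in metestrus. It was low in proestrus, with 6.85, 14 and 13.7 CPM, and in estrus, with 13, 8.01 and 7.33 CPM. The proestrus and estrus samples overlapped, and all 3 metestrus samples lay above them. Stage means were 11.5 ± 4.05, 9.44 ± 3.09, 53.8 ± 23.9 and 162 ± 45.5 CPM in proestrus, estrus, metestrus and diestrus (SD, n = 3). The lowest diestrus sample was 1.62 times metestrus replicate 7, the highest of the others. That library, which had the highest metestrus level of both Wfdc1 and Pkdcc, also had the high Prss28 and Prss29 level and the lowest sum of the other gland markers in metestrus; the part of that in these levels was not tested.

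Pfn2 (ENSMUSG00000027805, chromosome 3, 57841895 to 57848079, minus strand) had 82.3, 74.6 and 99.1 CPM in diestrus and 34.7, 32.2 and 34 CPM in metestrus. Its proestrus samples had 24, 21.6 and 25.4 CPM, and its estrus samples 16.1, 14.3 and 8.7 CPM. The 4 stages did not overlap: estrus was lowest, followed by proestrus, metestrus and diestrus. The diestrus mean of 85.3 ± 12.5 CPM was 2.54 times the metestrus mean of 33.6 ± 1.31 CPM (SD, n = 3).

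Tmem132c (ENSMUSG00000034324, chromosome 5, 127241808 to 127565793, plus strand) had 94.7, 97.9 and 136 CPM in diestrus, and its proestrus samples, at 10.3, 11.9 and 4.06 CPM, were the lowest. Estrus gave 29.1, 17.2 and 20.2 CPM and metestrus 34.2, 28.4 and 22.7 CPM. Estrus and metestrus overlapped, and both lay above all proestrus samples. The diestrus mean of 110 ± 23.2 CPM was 3.86 times the metestrus mean of 28.4 ± 5.78 CPM (SD, n = 3).

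Acot7 (ENSMUSG00000028937, chromosome 4, 152178134 to 152271855, plus strand) had the largest ratio of the diestrus mean to the next stage mean of the 6 genes, 5.88, but 1 library set much of it. Its diestrus samples had 43.9, 195 and 57.7 CPM. The remaining 9 samples overlapped across stages: 13.1, 9.16 and 9.13 CPM in proestrus, 14.8, 10.3 and 11.9 CPM in estrus, and 12.4, 18.9 and 19.1 CPM in metestrus. The diestrus mean was 99 ± 83.7 CPM (SD, n = 3), and 50.8 CPM without diestrus replicate 4, which also had the highest neuron and stromal marker sums of the 3 diestrus samples (91.9 and 13900 CPM); their part in this level was not tested. The other two diestrus samples were still above all 9, and the lowest was 2.3 times the highest of those.

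Bpifb5 (ENSMUSG00000038572, chromosome 2, 154223742 to 154240902, plus strand) went against the label of a diestrus peak. It had 28.4, 5.93 and 19.8 CPM in diestrus and 14.5, 27.8 and 8.94 CPM in metestrus, and these groups overlapped. Proestrus gave 2.28, 3.23 and 2.03 CPM, and estrus 2.47, 0 and 0.458 CPM, from 4, 0 and 1 estimated counts. The gene was therefore low in proestrus and estrus, near the floor of a few counts, and higher in both later stages. The diestrus mean of 18.1 ± 11.3 CPM was 1.06 times the metestrus mean of 17.1 ± 9.67 CPM (SD, n = 3). The order of these stages turned when diestrus replicate 3 was left out, with 12.9 CPM in diestrus. Without metestrus replicate 5 or 7, the metestrus mean was 18.4 or 21.1 CPM.

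**Figure D1:**
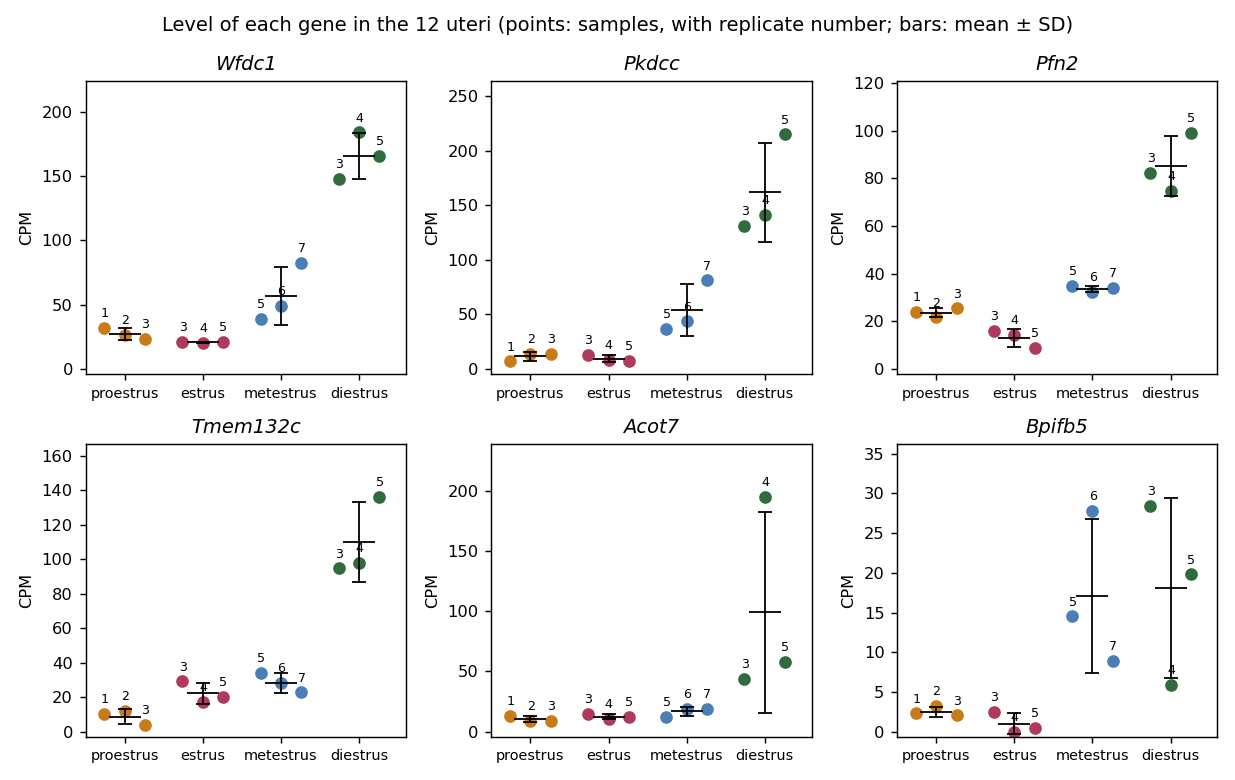
Level of each gene in CPM (y axis, linear from 0) in the 3 uteri of each stage (x axis), with points for samples labelled by replicate number and bars for the mean ± SD. For Wfdc1, Pkdcc, Pfn2, Tmem132c and Acot7 all 3 diestrus points lie above the other 9, Acot7 replicate 4 reaches 195 CPM, and Bpifb5 overlaps between metestrus and diestrus.

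In 5 of the 6 genes all 3 diestrus samples exceeded the other 9, which 289 genes (2.4%) did; since the choice of genes used this contrast, nothing is read from the count. On the log2 scale fitted with edgeR, the difference between diestrus and metestrus was 1.55 ± 0.22 (SE) for Wfdc1, 1.59 ± 0.29 for Pkdcc, 1.34 ± 0.18 for Pfn2, 1.94 ± 0.27 for Tmem132c, 2.57 ± 0.47 for Acot7 and 0.09 ± 0.53 for Bpifb5. Between diestrus and estrus it was 3.00 ± 0.24 for Wfdc1, 4.12 ± 0.36 for Pkdcc, 2.73 ± 0.2 for Pfn2, 2.31 ± 0.27 for Tmem132c, 3.01 ± 0.49 for Acot7 and 4.21 ± 0.8 for Bpifb5.

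Among proestrus, estrus and metestrus, which a diestrus peak does not fix, different members passed the test in each comparison. Bpifb5 was not tested, because its metestrus level was known from earlier results and its counts were high enough for a test only through the later stages. Of the other 5, 4 differed over these stages, namely Wfdc1 (edgeR F test with Benjamini-Hochberg adjustment, adjusted p = 0.0032), Pkdcc (0.000766), Pfn2 (0.00294) and Tmem132c (0.00892), against 18% of all genes. Acot7 gave an adjusted p of 0.632 in the same test. All 12 samples share 1 estimate of the spread, so the high diestrus replicate 4 also enters the Acot7 error among these stages. Without that sample, metestrus against proestrus was 0.68 ± 0.27 for Acot7 (SE, edgeR adjusted p = 0.168). With only the stages compared it was 0.69 ± 0.3 (0.288). With counts scaled from TPM the Tmem132c call was lost (edgeR adjusted p = 0.112).

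From proestrus to estrus, Pfn2 fell by 0.88 ± 0.22 on the log2 scale (SE; edgeR adjusted p = 0.0157). Tmem132c rose by 1.34 ± 0.34 in the same comparison (edgeR adjusted p = 0.0164). These were 2 of the 5 genes tested, and 17.1% of all genes passed, 9.67% higher and 7.45% lower in estrus. For both, the 3 estrus samples did not overlap the 3 proestrus samples, as for 39% of all genes. The remaining differences were -0.39 ± 0.26 for Wfdc1, -0.32 ± 0.43 for Pkdcc and 0.24 ± 0.58 for Acot7, with edgeR adjusted p-values of 0.334, 0.658 and 0.824. Bpifb5 differed by -1.4 ± 1.05, given without a test. Neither call held in the fit without proestrus replicate 3 (edgeR adjusted p = 0.0587 for Pfn2 and 0.0654 for Tmem132c). The Pfn2 call was also lost without estrus replicate 5 (edgeR adjusted p = 0.0614), and the Tmem132c call without estrus replicate 3 (0.0655) and with counts scaled from TPM (0.0678).

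From estrus to metestrus, Pkdcc rose by 2.52 ± 0.37 (edgeR adjusted p = 0.00146), Wfdc1 by 1.45 ± 0.24 (0.00389) and Pfn2 by 1.39 ± 0.21 (0.00215). In each, all 3 metestrus samples exceeded all 3 estrus samples; 25.4% of all genes had no overlap, in either direction. These were 3 of the 5 genes tested, all higher, and 7.55% of all genes passed, 2.82% higher. Tmem132c, which had already risen in estrus, differed by 0.38 ± 0.29 (edgeR adjusted p = 0.47), and Acot7 by 0.44 ± 0.55 (0.67). Bpifb5 differed by 4.12 ± 0.81, given without a test.

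Metestrus against proestrus, which skips the estrus stage, gave 3 of the 5 genes tested, all higher, where 4.31% of all genes passed and 2.49% were higher. Pkdcc rose by 2.2 ± 0.35 (edgeR adjusted p = 0.00766), Tmem132c by 1.71 ± 0.33 (0.0147) and Wfdc1 by 1.06 ± 0.24 (0.0262). Bpifb5 differed by 2.72 ± 0.68, given without a test, and its 3 metestrus samples exceeded its 3 proestrus samples. Pfn2 differed by 0.51 ± 0.2 (edgeR adjusted p = 0.157) and Acot7 by 0.68 ± 0.56 (0.536), although all 3 Pfn2 samples in metestrus exceeded those in proestrus, a lack of overlap that 23.4% of all genes had in 1 direction or the other. The Wfdc1 call was lost with limma-voom (adjusted p = 0.0511) and without proestrus replicate 1, 2 or 3 or metestrus replicate 7 (edgeR adjusted p = 0.0531, 0.1, 0.111 and 0.0685), and that of Tmem132c without proestrus replicate 3 (0.0588) and with counts scaled from TPM (0.19). With only the 6 samples of these stages in the fit, none of the 3 passed (edgeR adjusted p = 0.126 for Wfdc1, 0.0531 for Pkdcc and 0.0776 for Tmem132c).

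**Figure D2:**
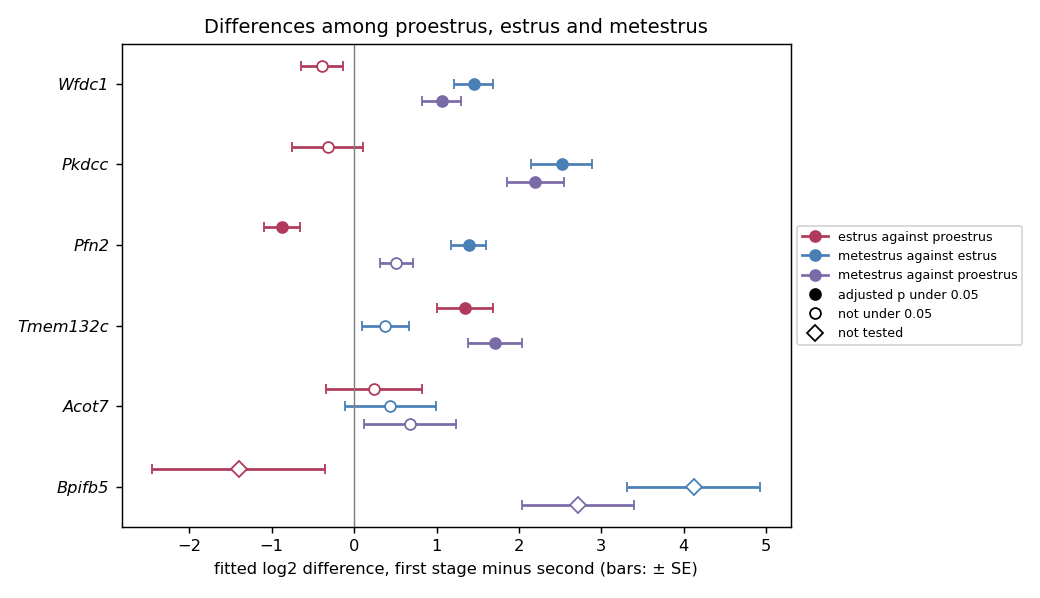
Fitted log2 difference (x axis, first stage minus second, bars ± SE) of each gene (y axis) in the 3 comparisons among proestrus, estrus and metestrus; filled circles passed an adjusted p of 0.05, open circles did not, and diamonds were not tested. Pfn2 lies left of 0 in estrus against proestrus and Tmem132c right of it, and the filled points of both metestrus comparisons lie right of 0.

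Correlations across the 12 samples carry the diestrus level by which the genes were chosen, and are a description. Pearson's r of log2 CPM ran from 0.47 (Acot7 and Bpifb5) to 0.96 (Wfdc1 and Pkdcc). After each stage mean was subtracted, the 15 pairs gave r from -0.51 to 0.48 with a median of 0; 7 were positive and 8 negative. None had a Benjamini-Hochberg adjusted p under 0.05 in the exact two-sided permutation within stages, and 1 had an unadjusted p under it by Pearson and 1 by Spearman. That pair was Wfdc1 and Acot7, with r = 0.48 (exact permutation p = 0.027, adjusted p = 0.405) and rho = 0.72 (exact permutation p = 0.0154, adjusted p = 0.231), and r = 0.63 without the 2 samples farthest from the median of Wfdc1. Wfdc1 and Pkdcc, the pair with the highest r over the samples, had r = 0.39 within stages (exact permutation p = 0.444, adjusted p = 0.948), and -0.34 without metestrus replicates 5 and 7. The lowest r, for Acot7 and Bpifb5 (exact permutation p = 0.341), was 0.2 without diestrus replicates 3 and 4.

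**Figure D3:**
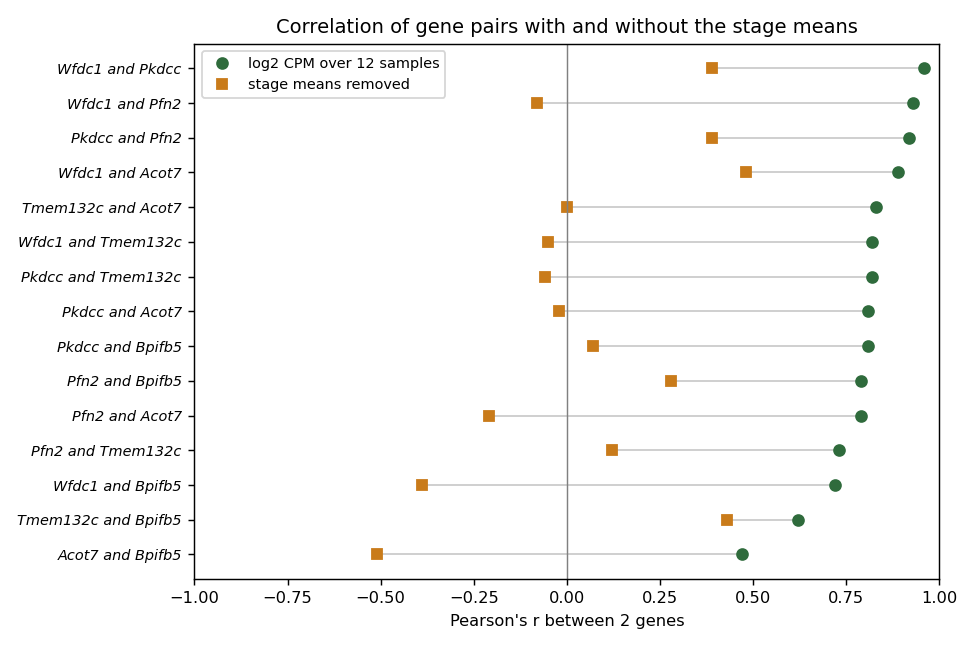
Pearson's r of log2 CPM (x axis) for the 15 gene pairs (y axis), as circles over the 12 samples and as squares after the stage means were subtracted. The circles run from 0.47 to 0.96 and the squares from -0.51 to 0.48.

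The genes whose log2 CPM over the 12 samples was most like each member's were named by Pearson's r, as a description. For Wfdc1 they were Hdc (0.968), the enzyme that makes histamine, Ihh (0.967), Maoa (0.966), Hoxd11 (0.964) and Zmpste24 (0.962). For Pkdcc they were Ihh (0.987), the Indian hedgehog ligand, Tshz3 (0.972), Phlda3 (0.959), Wfdc1 (0.955) and Hdc (0.952). Ihh had 0.719, 0.359, 6.48 and 17.5 CPM in proestrus, estrus, metestrus and diestrus. Its proestrus and estrus means were under the floor, so its r rests partly on very low counts.

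Pfn2 was most like 6030408B16Rik (0.958), Tspan3 (0.943), Armc1 (0.94), Cox6c (0.939), a subunit of cytochrome c oxidase, and Slc25a4 (0.938), the mitochondrial ADP/ATP carrier. Tmem132c was most like Pex11a (0.952), a peroxisome gene, Gde1 (0.946), Mme (0.944), the peptidase neprilysin, Ndp (0.936) and Hhipl1 (0.929). Mme had 15.2, 35.9, 49.1 and 135 CPM over the stages. Acot7 was most like Jam2 (0.95), Chst14 (0.944), Pla2g10 (0.939), Sbspon (0.929) and Hadh (0.928). Without diestrus replicate 4, which had the highest Acot7 level, these ranked 5, 2, 6, 14 and 10. Mean Pla2g10 levels were under the floor in proestrus, estrus and metestrus (0.19, 0.343 and 0.807 CPM). Bpifb5 was most like Mpdz (0.961), Ints13 (0.946), Flywch1 (0.944), Ercc6l2 (0.93) and Map9 (0.924).

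Reads near the 3' end resolved isoforms only in part. Pkdcc-204 held 100% of the Pkdcc counts and Bpifb5-201 all of the Bpifb5 counts. Wfdc1-201 held 97.4% of Wfdc1 counts in proestrus, 84.3% in estrus, 96.9% in metestrus and 99.6% in diestrus. The shorter Wfdc1-202, which ends at 119683959, rested on 4, 18, 9.1 and 4 estimated counts summed over the 3 samples of each stage. Pfn2-201 and Pfn2-202 ended alike at the 3' end, so their shares were not resolved, and nor were those of Acot7-203, Acot7-206 and Acot7-202. Tmem132c-201 held 95.9% of the Tmem132c counts. Every stretch of 31 bases in the last 500 bases of Tmem132c-202 and Tmem132c-203 also lies in Tmem132c-201, so that share was not fully resolved. On the opposite strand, Gm32352 overlaps Wfdc1, Tmem132cos overlaps Tmem132c and Gm27500 overlaps Acot7, and on the same strand 9430087B13Rik overlaps Tmem132c and Gm13096 overlaps Acot7. None of these was analysed here, and the strand used in counting was not given, so their reads cannot be told apart from those of the members.

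The stroma in the label cannot be read from whole uteri, but the marker lists give a measured context. Summed stromal fibroblast markers ran from 14200 to 14500 CPM in proestrus, 11600 to 12000 in estrus, 7820 to 16000 in metestrus and 10400 to 13900 in diestrus, and did not share the order of the members. Most of that sum came from the collagen genes and Dcn, so its order is mainly theirs. In diestrus Col1a1, Col1a2, Col3a1 and Dcn had 2110, 3110, 2980 and 1740 CPM, against 353 CPM for Hoxa10 and 394 CPM for Nr2f2. Of the 14 genes, 8 differed over the 4 stages (edgeR adjusted p under 0.05; 23.2% of all genes), 6 of them with the highest mean in diestrus: Hoxa10, Hoxa11, Hand2, Nr2f2, Thy1 and Twist2. Pdgfra and Dcn were highest in estrus. These marker genes were singled out after their values were seen.

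The epithelial marker sum was lower in the later stages: 1840 to 2470 CPM in proestrus, 1650 to 2050 in estrus, 714 to 1300 in metestrus and 699 to 878 in diestrus. The gland sum was 157 to 195 CPM in diestrus, above the 50.9 to 119 CPM of proestrus and estrus. Since Pfn2 and Acot7 are known from neurons, 12 neuron markers were summed: 42.6 to 49.1 CPM in proestrus, 28 to 44.4 in estrus, 47.2 to 71.6 in metestrus and 71.3 to 91.9 in diestrus. Th was at 0 in all samples. Of 4 neuron markers with enough counts, 1 differed over the stages, Gap43 (edgeR adjusted p = 0.000198), with 9, 4.3, 20.4 and 38.7 CPM. The others had 5.07, 6.35, 5.93 and 7.11 CPM (Uchl1), 13.3, 9.13, 16.4 and 17.4 CPM (Stmn2) and 10, 9.27, 8.56 and 9.14 CPM (Snap25). Gap43 therefore carried much of the rise in the neuron sum. Summed Schwann cell markers went the other way, at 18.1 to 26.4 CPM in diestrus and 30.3 to 63.7 CPM in the other stages. In diestrus the sums were 7230 to 7760 CPM for smooth muscle, 1270 to 1460 for endothelium, 282 to 359 for macrophages, 79.6 to 116 for mesothelium and 235 to 354 for red blood cells. Ovary, oviduct and adipocyte markers summed to 13.5 to 18.8, 7.91 to 30.9 and 0.989 to 7.92 CPM there, and Fshr was at 0 in all samples. The part of these marker levels in the member levels was not tested.

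**Figure D4:**
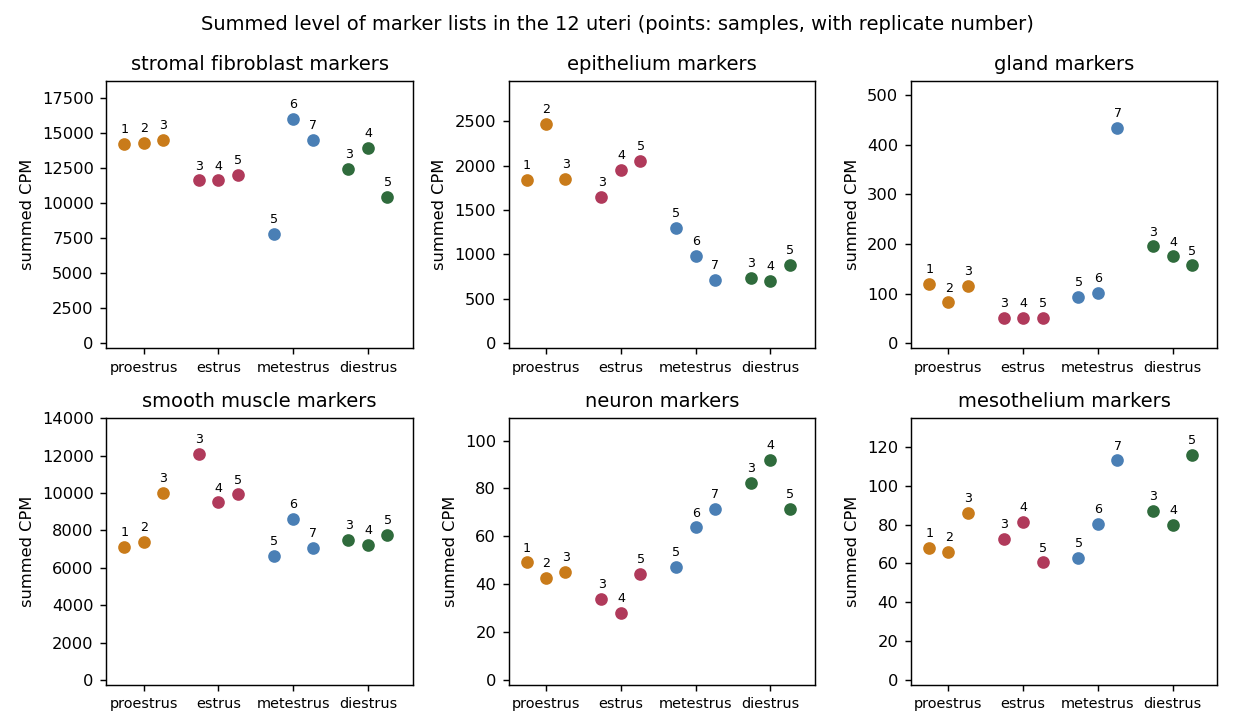
Summed CPM (y axis, linear from 0) of 6 marker lists in the 3 uteri of each stage (x axis), with points labelled by replicate number. Metestrus replicate 7 reaches 434 CPM for the gland list, metestrus replicate 5 is lowest for the stromal list at 7820 CPM, and epithelial sums are lower in metestrus and diestrus.

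Relatives of the 6 genes were highest in different stages. The families, the members themselves left out, held 86 genes in the files, of which 42 had enough counts. Over the 4 stages 16 of these 42 differed (edgeR F test, adjusted p under 0.05), 38.1% against 23.2% of all genes. Of the 42, 3 both differed and were highest in diestrus, and so did 5.69% of all tested genes. Between diestrus and estrus, 13 passed, 4 higher and 9 lower, where 22.8% of all genes did (9.72% higher and 13% lower), and the family median was -0.08 on the log2 scale against 0 over all genes.

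Among the whey acidic protein relatives of Wfdc1, 3 of 6 differed and none was highest in diestrus. Wfdc2 had 743, 721, 499 and 371 CPM in proestrus, estrus, metestrus and diestrus (edgeR adjusted p = 0.0107). Slpi, a protease inhibitor of mucosal surfaces, was highest in estrus at 28.6 CPM (edgeR adjusted p = 0.00238), and so was Wfdc18 at 38.3 ± 40.1 CPM (0.00896; SD, n = 3), or 15.8 CPM without estrus replicate 4. Among 2 relatives of Bpifb5, Pltp, the phospholipid transfer protein, had 39.8, 91.8, 159 and 146 CPM (edgeR adjusted p = 0.00189).

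Of 8 kinases related to Pkdcc, 5 differed. Fam20c, the kinase of many secreted phosphoproteins, went the opposite way to Pkdcc: it fell by 2.11 ± 0.26 from estrus to diestrus (edgeR adjusted p = 0.000136). Fam69b was highest in diestrus, with 5.36, 8.34, 10.8 and 19.1 CPM (edgeR adjusted p = 0.00458 over the stages). Fam20a was highest in proestrus and Fam69a in estrus (edgeR adjusted p = 0.0111 and 0.0147).

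Of 16 profilin and actin monomer genes, 5 differed. Evl was highest in diestrus, with 29.6, 31.5, 43.8 and 57.5 CPM (edgeR adjusted p = 0.00398). Dstn, which severs actin filaments, was highest in estrus at 1180 CPM (edgeR adjusted p = 0.00189), and Vasp in proestrus at 96.3 CPM (0.0214). Enah was lowest in estrus at 76.2 CPM (edgeR adjusted p = 0.0173). Among 9 relatives of Acot7, Acot1 was highest in estrus at 171 CPM (edgeR adjusted p = 0.00554), with near-identical copies that make its count uncertain, and Them5 in diestrus at 8.32 CPM (0.0376). Of the Tmem132 relatives only Tmem132a could be tested (edgeR adjusted p = 0.464 over the stages).

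These lists were chosen with earlier results of these data known, so their counts are a description. Genes known to respond to progesterone were mostly highest in diestrus in the same libraries, and those known to respond to estrogen mostly in estrus. Of 17 tested progesterone-responsive genes, 13 differed over the stages and 12 of them were highest in diestrus, where 23.2% of all genes differed and 5.69% differed and were highest there. Their median log2 difference between diestrus and estrus was 1.18, against 0 over all genes, with 10 higher (9.72% of all genes) and 1 lower (13%) past the threshold. Hoxa10 (edgeR adjusted p = 7.85e-05) and Ihh (0.000101) were among them, as was Lrp2 (0.00123), whereas Inhbb was highest in proestrus (0.00176). Of 13 tested estrogen-responsive genes, 11 differed and 9 were highest in estrus, with a median of -4.24 (2 higher and 9 lower). The share of all genes that differed and were highest in estrus was not counted, so the 9 have no comparison in this list. Padi1 (edgeR adjusted p = 8.22e-06), Clca3a2 (0.000232), Lcn2 (0.000648) and Muc1 (0.000759) led that list. The 6 members lay in the direction of the progesterone list between diestrus and estrus, which their choice fixed.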

How the data were processed

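The 12 libraries were 3' TagSeq profiles of whole uteri, grouped by their estrous stage label. For each sample the authors deposited a table of 119414 transcripts, holding estimated counts and TPM, per the file headers. The deposited estimated counts are unscaled, and the deposited TPM values divide them by effective length, also a deposited column (other unit: bases), which suits full-length libraries better than 3' tags. The submitters' processing notes name FastQC, kallisto and DESeq2; the transcript set, build and use of strand are not given in the sources used here. Transcripts were matched without version to GENCODE M21 (GRCm38): 116640 (97.7%) matched, and the rest held 0.619% to 0.774% of a sample's counts and were left out. Estimated counts were summed per gene and rounded to whole numbers. CPM were scaled by TMM factors (0.907 to 1.05), and log2 CPM used a prior count of 2.

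Genes were filtered with filterByExpr by stage, leaving 12052, and fitted with edgeR 4.0.16 (quasi-likelihood, 1 coefficient per stage over all 12 samples, R 4.3.3; biological coefficient of variation 20.6%). P-values were adjusted by Benjamini-Hochberg over all genes tested, threshold 0.05. Bpifb5 was left out of the tests and counts of members. Pairs of members were tested by exact permutation within stages over 15 pairs. Alternatives were other scalings, DESeq2 1.42.0, limma 3.58.1 with voom, other filters, TPM-scaled counts, a replicate block, fewer stages, and each sample left out. The members, families, markers and hormone lists were chosen with earlier results of these data known. Named genes were the members, up to 4 genes per family or hormone list with the smallest adjusted p under the threshold, and the 5 genes most like each member. Promoter sequences are from RefSeq (GRCm38.p6), with 5 of 6 members matched.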

Additional observations from a re-analysis of the deposited data

How the results depend on the processing

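The number of members passing in each comparison depended on the fit. The 4 genes over proestrus, estrus and metestrus became 1 with a replicate block (the number in the title as a factor), which leaves 2 residual degrees of freedom; 4 had an unadjusted p under 0.05. With the block the 2 in estrus against proestrus became 1, the 3 in metestrus against estrus became 0 (3 unadjusted) and the 3 in metestrus against proestrus became 0 (1 unadjusted), all by edgeR. Same-numbered estrus and diestrus samples correlated at -0.04, 0.01 and -0.02 after group means were removed, and differently numbered ones at -0.03 to 0.04. The other stages were not compared in this way, so whether the numbers pair samples was not settled. Estrus against proestrus gave 1 with counts scaled from TPM, and 0 to 2 when 1 sample was left out (0 without proestrus replicate 3, where 2 passed unadjusted; 1 without estrus replicate 3 or 5). Metestrus against proestrus gave 0 with only the stages compared (edgeR; 5 unadjusted), and 1 to 3 when 1 sample was left out (1 without proestrus replicate 3). Of 315 refitted contrasts of a member, 291 kept direction and side of the threshold and 22 lost the call. The remaining 2 turned: Tmem132c in metestrus against estrus was -0.15 with counts scaled from TPM (edgeR adjusted p = 0.869), and Acot7 in estrus against proestrus was -0.1 with the replicate block (0.96). Neither passed the threshold in the reported fit, and only contrasts that passed there could lose the call. TPM values divide counts by effective length in every stage. From estrus to metestrus, TPM-scaled counts gave 2.5 for Pkdcc and 1.32 for Pfn2, against 2.52 and 1.39 in the reported fit. In that comparison Tmem132c turned, as given above. Scaling from TPM moved 15 mean levels by more than their SD. The diestrus means of Pkdcc, Pfn2 and Tmem132c became 77.2, 41.7 and 22.5 CPM. No other mean level moved that far, but leaving out 1 of 3 samples cannot shift a mean by its SD, so those refits were no test of this. Family counts stayed within 1.5 times, at 11 to 20 over the stages and 9 to 16 in diestrus against estrus when 1 sample was left out. Low counts limit Bpifb5, at 0 to 4 estimated counts per estrus sample. Apart from the construction of each alternative, the cause was not tested.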
